A study of Mus musculus with 18 samples.

Results

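The comparison described here is that of *Slc7a7* knockout with wild type BM-derived macrophages after acetylated LDL (Ac-LDL), 6 libraries (3 of each genotype) of the 18 in the series. These libraries were chosen by their labels alone, and 12290 of the 31053 genes listed passed a filter on low counts and were tested. Knockout cells came from Slc7a7 LysM-/- mice and wild type cells from Slc7a7 LysM+/+ mice, all C57Bl/6J and 12 weeks old at the time of marrow collection. In LysM-Cre mice the recombinase is made from the *Lyz2* (lysozyme M) locus, so that the floxed gene is lost in macrophages and granulocytes, and not in cells that do not use this locus. Whether the wild type mice carried the recombinase is not stated in the sources used. If they did not, its insertion and the loss of *Slc7a7* cannot be told apart. Marrow cells were differentiated for 7 days, with either recombinant M-CSF or medium conditioned by L cells. Then 100000 cells per library were kept for 24 h with 50 µg/mL of Ac-LDL. The other 12 libraries are of the same 6 mice, in control medium or with 100 µg/mL of Ox-LDL. The number that ends each column name is lower for all wild type than for all knockout libraries. The labels do not say what it stands for. If it follows the order of processing, that order and genotype cannot be told apart.

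*Slc7a7* encodes y+LAT1, the light chain of a transporter that exports cationic amino acids such as arginine and lysine and imports neutral ones such as glutamine with sodium. It works as a pair with the heavy chain encoded by *Slc3a2*. Ac-LDL is a modified lipoprotein that macrophages take up through scavenger receptors and break down in lysosomes. The cholesterol set free there lowers the activity of the transcription factor SREBP2, which drives the genes of cholesterol synthesis, and raises that of the LXR receptors, which drive cholesterol export. These 2 arms were among the gene groups examined, which were chosen with earlier results of these data known.

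Total counts were between 1267790 and 1768816 in the 3 knockout libraries and between 1043492 and 1473080 in the wild type ones. Levels are given in CPM, counts scaled by library size and composition. A gene without any count may still lie at up to 3 counts, or 1.67 to 2.85 CPM here, a limit for counting error only. The median standard error of a log2 fold change was 0.945 for genes under 5 CPM, 0.360 from 5 to 20 CPM, 0.206 from 20 to 100 CPM and 0.147 above. Between libraries, log2 CPM correlated with r from 0.964 to 0.974 within knockout, 0.948 to 0.964 within wild type and 0.950 to 0.968 between the genotypes. By *Xist*, 1 mouse of each genotype was female, so that sex was balanced. Fold changes below are log2 values of knockout over wild type, from edgeR's quasi-likelihood test, and adjusted p-values cover all genes tested by the Benjamini-Hochberg method.

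*Slc7a7* itself (mm10, chromosome 14, 54369442 to 54417780, minus strand) was measured at 2.36, 2.22 and 5.22 CPM in the knockout libraries, from 3, 4 and 9 counts. The wild type libraries had 28.5, 23.6 and 23.8 CPM, from 30, 32 and 35 counts. The genotypes did not overlap, and the gene fell by 2.89 on the log2 scale (standard error 0.36, adjusted p = 0.000472). The means were 3.27 ± 1.69 CPM (SD, n = 3) and 25.3 ± 2.74 CPM (SD, n = 3), a reduction of 87.1%. A two-sided exact permutation test of these levels gave p = 0.10, which is the lowest value possible with 3 libraries a group. With Ac-LDL each library thus matched its label. The log2 difference was -1.18 in control medium and -1.50 with Ox-LDL. In control medium *Slc7a7* had 10.3, 4.33 and 5.16 CPM in knockout and 11.1, 12.6 and 21.1 CPM in wild type cells, so that the genotypes lay closer together there without overlapping. The difference between these effects and that with Ac-LDL was -1.71 (standard error 0.52, unadjusted p = 0.0032) and -1.39 (standard error 0.49, unadjusted p = 0.0092), and neither passed adjustment over all genes. *Oxa1l*, a mitochondrial insertase on the other strand at this locus, was at 0.24 (unadjusted p = 0.23).

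*Lyz2* (chromosome 10, 117277331 to 117282321), which encodes the macrophage lysozyme and carries the recombinase, was the only other gene past the threshold. Its level was 11952, 10096 and 10665 CPM in knockout and 25746, 20339 and 30462 CPM in wild type cells, 2 groups that did not overlap. It fell by 1.23 on the log2 scale (standard error 0.20, adjusted p = 0.0149), a reduction of the mean of 57.3%. The same mice gave -0.87 in control medium and -1.24 with Ox-LDL. The part of the recombinase at this locus in the *Lyz2* difference was not tested. The neighbouring *Lyz1*, the other lysozyme gene, shares 34.2% of its 31-base words with *Lyz2*, so reads may have been split between them. *Lyz1* had 41.8, 38.9 and 49.3 CPM in knockout and 23.7, 25.9 and 36.0 CPM in wild type cells (0.58, standard error 0.24, unadjusted p = 0.023). Summed, both genes were 57.1% lower in knockout cells, and *Lyz1* made up at most 0.46% of the sum in any of the 6 libraries. The 21 genes tested within 500 kb of *Slc7a7* had a median of -0.00 and the 9 within 500 kb of *Lyz2* one of -0.04.

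**Figure D1:**
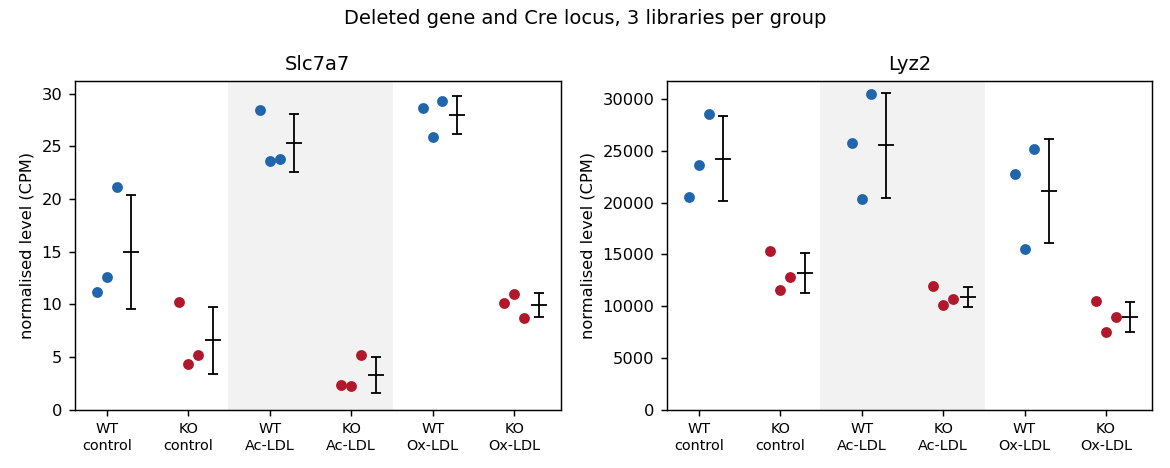
*Slc7a7* (left) and *Lyz2* (right) in CPM on linear axes from 0, in the 18 libraries. Points are libraries (blue wild type, red knockout), black bars the mean and SD of 3, and the grey band marks Ac-LDL. With Ac-LDL, *Slc7a7* was at most 5.22 CPM in knockout and at least 23.6 CPM in wild type cells, and *Lyz2* at most 11952 and at least 20339 CPM.

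Of all genes, 2 (0.0163%) passed an adjusted p of 0.05, both lower. Without adjustment, 302 genes (2.46%) were higher and 299 (2.43%) lower at p under 0.05, 4.89% together. The 3 knockout libraries all lay above the 3 wild type ones for 696 genes (5.66%) and all below for 588 (4.78%). The median of all genes was -0.00. DESeq2 called 6 genes, among them *Lyz2*, *Slc7a7*, *Gm10800*, *Ngp* and *Gm10718*. The difference between the genotype effect with Ac-LDL and that in control medium or with Ox-LDL passed for 0 genes each (0%) with edgeR. Without adjustment, 327 and 318 genes had a p under 0.05. With DESeq2 it passed for 1 gene (*Gm32687*, named after its values were seen) and for 0 genes. Both fits took the libraries of a mouse as independent. With limma voom and the mouse as a random block, 492 and 523 genes had an unadjusted p under 0.05, and 0 passed. What follows is thus mostly a description of values that did not pass adjustment.

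**Figure D2:**
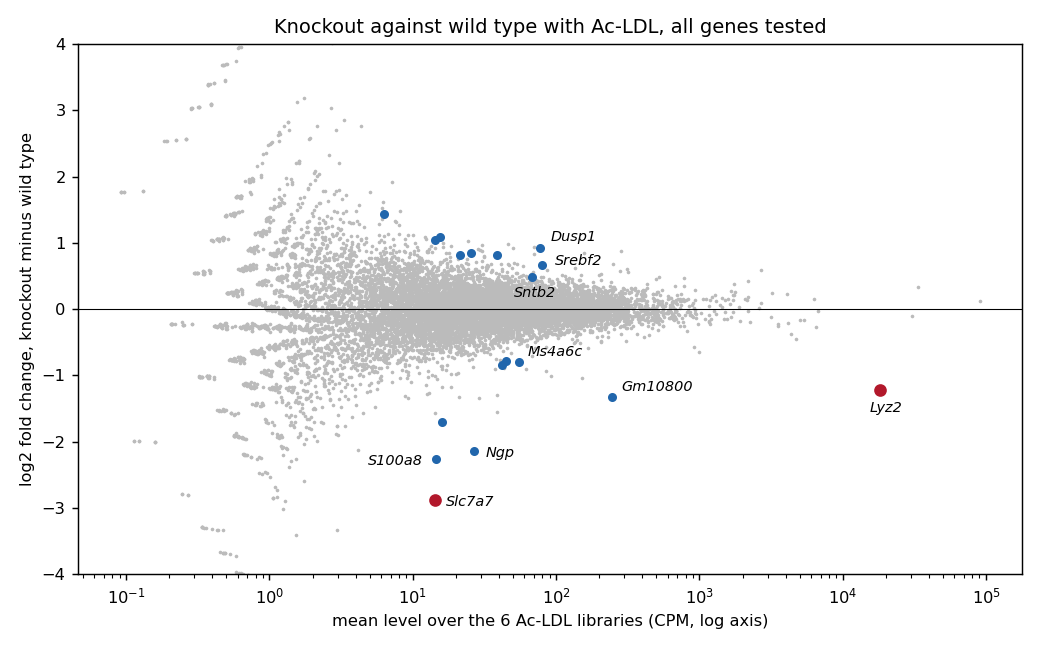
Log2 fold change (knockout over wild type) against the mean of the 6 Ac-LDL libraries in CPM on a log axis, 1 grey point per gene tested, with 41 genes beyond the vertical range left out. Red points mark the 2 genes past adjusted p 0.05, *Slc7a7* and *Lyz2*, and blue points others of the 10 smallest p-values in each direction.

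Of the partners and relatives of y+LAT1, none was near the size of the *Slc7a7* change. *Slc3a2* was at 221, 179 and 187 CPM in knockout and at 202, 194 and 195 CPM in wild type cells. Its log2 difference was -0.01, with a 95% interval from -0.27 to 0.24. *Slc7a6*, which encodes the related light chain y+LAT2, was at 0.12 (-0.54 to 0.78). The arginine importer *Slc7a1* (CAT1) had 33.9, 59.4 and 59.1 CPM against 34.2, 35.5 and 27.2 CPM. It was at 0.68 (standard error 0.29, unadjusted p = 0.029), with knockout replicate 1 among the wild type values. Of the 7 cationic transporter genes tested, 2 were higher and 5 lower, and *Slc7a7* alone was called.

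Among carriers of glutamine and other neutral amino acids, the log2 difference was for *Slc1a5* 0.21 (95% interval -0.32 to 0.74), *Slc7a5* 0.29 (-0.68 to 1.25), *Slc7a8* 0.05 (-0.29 to 0.39), *Slc38a1* 0.11 (-0.17 to 0.39) and *Slc38a2* 0.21 (-0.08 to 0.49). Their libraries overlapped between the genotypes in each case. Among all 11 neutral amino acid transporters tested, *Slc38a7*, a lysosomal glutamine exporter, had the smallest p. It was at 24.4, 35.5 and 31.9 CPM in knockout and at 51.2, 39.9 and 37.4 CPM in wild type cells, without overlap (-0.45, standard error 0.21, unadjusted p = 0.039). Of 16 genes of glutamine metabolism, 11 were higher and 5 lower with 0 called and 0 at an unadjusted p under 0.05, also by DESeq2 0 called, and *Pfas* of purine synthesis was first at 0.45 (unadjusted p = 0.12).

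Genes that respond to lack of amino acids through ATF4 had a median of -0.05 over 30 genes, 11 higher and 19 lower, while 19 were higher with a median of 0.11 without wild type replicate 1. *Atf3*, a transcription factor of this response, was at 154, 167 and 162 CPM against 121, 131 and 127 CPM (0.35, unadjusted p = 0.018), and was higher in control medium (0.47) and with Ox-LDL (0.46) too. The 20 cytosolic aminoacyl-tRNA synthetases had a median of 0.12 with 15 higher, and none at an unadjusted p under 0.05. Without wild type replicate 3, 10 of them were higher and the median was 0.0037, and without wild type replicate 1 18 were higher with a median of 0.20. The 30 genes of TFEB and lysosomal mTORC1 sensing had a median of -0.04. Among them *Mtor*, the kinase itself, was at 93.8, 75.5 and 75.4 CPM against 48.4, 67.2 and 68.7 CPM (0.39, unadjusted p = 0.021). Of 17 genes of arginine and polyamine use, 9 were higher, and *Sat1*, which acetylates spermidine, was lowest in p (-0.35, unadjusted p = 0.045).

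Among the lists plotted by median, the sterol synthesis list had the highest one. Several short marker lists were not plotted, among them the lymphoid one, with 2 genes tested and a median of 0.44. Of the 24 sterol synthesis genes tested, 22 had a higher fitted value in knockout cells, and the median was 0.34 beside -0.00 for all genes. At an unadjusted p under 0.05, 8 were higher and 0 lower, where 2.46% of all genes were higher, and in 6 the knockout libraries lay above all wild type ones, where 5.66% of all genes did. edgeR called 0 of the 24, and DESeq2 called 1. The count of 8 became 3 without wild type replicate 1, 4 without knockout replicate 2 and 5 without wild type replicate 2, while 19 to 23 genes stayed higher with each library left out. The median was 0.51 without wild type replicate 3. As the lists were drawn up with results of these data known, the counts are not independent evidence.

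*Srebf2* encodes SREBP2 itself. It was measured at 118, 96.1 and 82.3 CPM in knockout and at 54.1, 63.5 and 66.6 CPM in wild type cells. The genotypes did not overlap (0.67, standard error 0.16, unadjusted p = 0.00035, adjusted p = 0.43). In control medium both genotypes had more, 226 ± 13.7 CPM (SD, n = 3) in knockout and 217 ± 12.9 CPM (SD, n = 3) in wild type cells, a log2 difference of 0.06. With Ox-LDL they had 79.5 ± 13.3 CPM (SD, n = 3) and 70.0 ± 11.1 CPM (SD, n = 3), a difference of 0.18. The genotype effect on *Srebf2* with Ac-LDL exceeded that in control medium by 0.61 (standard error 0.21, unadjusted p = 0.00824) and that with Ox-LDL by 0.49 (standard error 0.23, unadjusted p = 0.0404), and neither passed adjustment. *Msmo1*, a methylsterol oxidase, had 70.1, 96.1 and 71.3 CPM against 52.2, 48.8 and 63.2 CPM (0.53, unadjusted p = 0.0054).

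Further members at an unadjusted p under 0.05 were *Idi1* (0.56) of the isoprenoid steps, the squalene epoxidase *Sqle* (0.47) and the lanosterol demethylase *Cyp51* (0.45). *Idi1* and *Sqle* had at least 1 overlapping library. *Hmgcs1*, the first committed step, was at 0.04 (95% interval -0.36 to 0.44), and *Insig1*, which holds SREBP in the endoplasmic reticulum, at 0.29 (-0.14 to 0.71). The 2 members with lower values were *Dhcr7* (-0.19) and *Acat2* (-0.00).

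Summed over the list, the knockout libraries had 774, 862 and 663 CPM with Ac-LDL and the wild type libraries 533, 535 and 633 CPM. In control medium the sums ran from 2010 to 2444 CPM in knockout and from 2289 to 2426 CPM in wild type cells, and with Ox-LDL from 493 to 506 CPM and from 526 to 582 CPM. The knockout sums with Ac-LDL thus lay above those of each other lipoprotein group and below those of control medium. The median log2 difference of the same 24 genes was -0.13 in control medium (5 higher) and -0.13 with Ox-LDL (9 higher). These are the same mice in other media, and the difference between the medians was not tested.

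**Figure D3:**
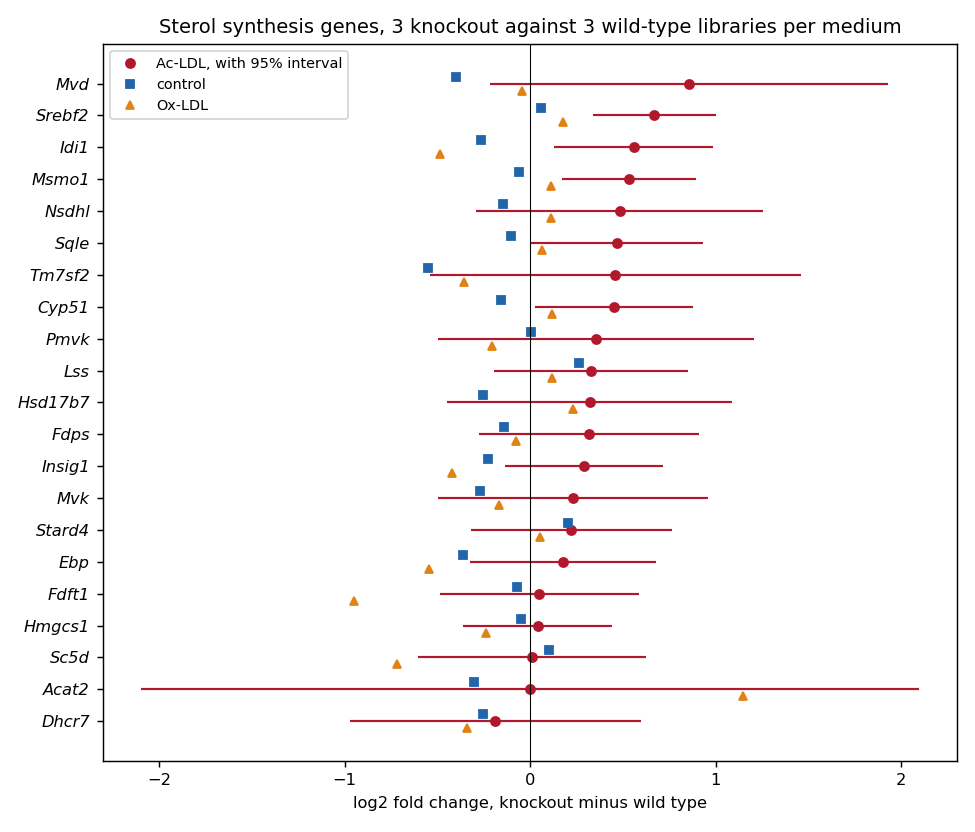
Log2 fold change, knockout over wild type, of 21 of the sterol synthesis genes tested. Red circles with lines give Ac-LDL with its 95% interval, blue squares control medium and orange triangles Ox-LDL, each from 3 against 3 libraries. With Ac-LDL, 19 of 21 circles lie right of 0, from 0.01 for *Sc5d* to 0.86 for *Mvd*, while 5 squares and 9 triangles do.

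SREBP binds sterol regulatory elements, often beside a CCAAT box, the site of NF-Y. Promoter sequences from RefSeq (GRCm38.p6) were found for 17 of the 24 genes, and the 250 bases before each start were searched on both strands for TCACNCCA, a short form of the element, and for CCAAT. The first was found in 3 of the 17 genes, *Srebf2*, *Msmo1* and *Hmgcs1*, and in 3.67% of all 32851 promoters of that length. CCAAT was found in 16 of the 17 genes and in 33.8% of all promoters. A gene counted if any of its promoters matched, with 20 promoters for the 17 genes, while the shares of all promoters are per promoter. The 4 genes at an unadjusted p under 0.05 that the table holds are shown 5′ to 3′, from 250 bases before the start to the base before it, with matches to either motif in capitals (ATTGG is CCAAT on the other strand).
Srebf2, chr15:82147019-82147268, plus strand: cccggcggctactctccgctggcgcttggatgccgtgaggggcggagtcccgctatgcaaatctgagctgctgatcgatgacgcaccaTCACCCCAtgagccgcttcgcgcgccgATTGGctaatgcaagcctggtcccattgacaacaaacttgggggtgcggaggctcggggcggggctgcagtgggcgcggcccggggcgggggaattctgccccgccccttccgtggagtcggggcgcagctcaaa
Msmo1, chr8:64733579-64733828, minus strand: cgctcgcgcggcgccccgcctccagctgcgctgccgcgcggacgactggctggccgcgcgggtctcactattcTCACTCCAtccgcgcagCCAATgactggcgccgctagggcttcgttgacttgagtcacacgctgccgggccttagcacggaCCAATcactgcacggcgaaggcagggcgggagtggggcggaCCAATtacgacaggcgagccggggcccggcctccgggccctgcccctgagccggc
Idi1, chr13:8885356-8885605, plus strand: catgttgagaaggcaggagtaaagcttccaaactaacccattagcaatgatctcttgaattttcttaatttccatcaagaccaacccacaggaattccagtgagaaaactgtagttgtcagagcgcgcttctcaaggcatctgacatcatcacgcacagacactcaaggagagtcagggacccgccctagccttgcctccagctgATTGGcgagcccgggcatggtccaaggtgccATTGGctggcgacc
Cyp51, chr5:4104698-4104947, minus strand: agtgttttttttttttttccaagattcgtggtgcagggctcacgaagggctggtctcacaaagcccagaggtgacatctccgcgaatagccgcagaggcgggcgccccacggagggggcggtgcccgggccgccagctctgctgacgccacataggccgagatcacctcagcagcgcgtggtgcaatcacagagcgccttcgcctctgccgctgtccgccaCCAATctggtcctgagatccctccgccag
In *Srebf2* the sterol element began 162 and the inverted CCAAT box 135 bases before the start. In *Msmo1* the element began 177 bases before the start, with CCAAT boxes at 160, 96 and 55. *Hmgcs1* holds both motifs as well and had the log2 difference of 0.04 given above. *Idi1* and *Cyp51* hold CCAAT and no TCACNCCA in this window. Other forms of the sterol element were not searched for, so its absence from these promoters is not shown. A match is a description of letters and not a site shown to be bound.

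Genes of cholesterol export leaned the other way. Of 16 LXR targets and related genes tested, 11 were lower and 5 higher, with a median of -0.16, 0 called by edgeR or DESeq2 and 2 lower at an unadjusted p under 0.05, beside 2.43% of all genes. *Apoe*, which carries cholesterol out of macrophages, had 946, 474 and 923 CPM in knockout and 1187, 1048 and 1432 CPM in wild type cells. The groups did not overlap (-0.65, standard error 0.25, unadjusted p = 0.015), and *Apoe* was also at -0.50 in control medium and -0.47 with Ox-LDL. *Soat1*, which stores cholesterol as esters, was at -0.31 (unadjusted p = 0.039) without overlap. The exporter *Abca1* had 378, 305 and 469 CPM against 488, 514 and 511 CPM, without overlap (-0.39, 95% interval -0.90 to 0.12). *Abcg1* was at -0.18. Without knockout replicate 2, the library lowest in *Apoe* and *Abca1*, the median of the list was -0.07. Without that library or without wild type replicate 3, none was lower at an unadjusted p under 0.05.

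Uptake receptors and fatty acid genes showed no common direction. Of 12 scavenger receptors for modified LDL, 6 were higher and 6 lower. *Scarb1*, the HDL receptor, was at 81.2, 88.9 and 85.8 CPM against 54.1, 71.7 and 72.1 CPM, without overlap (0.36, unadjusted p = 0.021). Of 15 genes of fatty acid synthesis, 8 were higher, and the desaturase *Fads2* was at 7.88, 6.11 and 5.22 CPM against 1.90, 1.48 and 2.72 CPM, values near the counting limit (1.57, standard error 0.71, unadjusted p = 0.036). The 20 PPAR and lipid droplet genes tested had a median of -0.03.

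Lysosomal genes were mostly a little lower. Of 42 lysosomal hydrolases and membrane proteins, all tested, 36 were lower and 6 higher, with a median of -0.13 and quartiles of -0.21 and -0.05. edgeR and DESeq2 called 0 of them, and 4 were lower at an unadjusted p under 0.05, where 2.43% of all genes were, a count that went from 1 (without wild type replicate 3) to 6 (without wild type replicate 2). *Ctsk*, the collagen-degrading cathepsin K, had 3.15, 5.55 and 6.38 CPM against 16.1, 11.1 and 12.9 CPM (-1.34, standard error 0.41, unadjusted p = 0.0035). The sialidase *Neu1* had 47.3, 58.3 and 59.7 CPM against 71.2, 70.2 and 72.8 CPM (-0.36, unadjusted p = 0.030). Neither gene overlapped between the genotypes. The same 42 genes had a median of -0.06 in control medium and -0.13 with Ox-LDL. With Ac-LDL it was -0.07 without knockout replicate 2 and -0.21 without knockout replicate 1.

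The 12 markers of lipid-associated macrophages (LAM), the foamy cells of plaques, shared some of these genes. Of them 10 were lower and 2 higher, with a median of -0.13 and 0 called by edgeR or DESeq2, with 2 lower at an unadjusted p under 0.05, where 2.43% of all genes were. Without wild type replicate 1, 7 were lower and 5 higher. Without wild type replicate 2 the median was -0.22 with 4 lower at an unadjusted p under 0.05, a count that was 0 without knockout replicate 2, knockout replicate 3 or wild type replicate 3. *Gpnmb*, a lysosomal glycoprotein, had 4424, 3472 and 3408 CPM in knockout and 5060, 4621 and 5061 CPM in wild type cells, without overlap (-0.38, standard error 0.15, unadjusted p = 0.015). The tetraspanin *Cd63* was at -0.37 (unadjusted p = 0.037) without overlap, and the fatty acid carrier *Fabp5* at -0.59 (unadjusted p = 0.051) with overlap. *Ctsd* was at -0.26, *Cd5l* at -0.21, *Ctsb* at -0.17, *Spp1* at -0.09, *Lgals3* at -0.09 and *Ctsl* at -0.04, each with overlap. The 2 higher were the metalloelastase *Mmp12* (0.63, 95% interval -0.10 to 1.35), whose groups did not overlap, and the lipase *Lpl* (0.59, -0.25 to 1.43).

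*Trem2*, the lipid receptor that marks these cells, was at 380, 451 and 444 CPM against 399, 443 and 473 CPM. Its log2 difference was -0.04, with a 95% interval from -0.30 to 0.22. *Folr2*, the folate receptor of resident-like macrophages, was at 41.0, 134 and 100 CPM against 40.8, 68.0 and 37.4 CPM. It was higher at an unadjusted p of 0.013 (0.93, standard error 0.35), with knockout replicate 1 level with the wild type libraries, and was at 0.84 in control medium and 0.87 with Ox-LDL. Of the 14 resident-like markers tested, *Folr2* included, 12 had lower values, with a median of -0.25. *Selenop*, the secreted selenium carrier, had 875, 559 and 777 CPM against 1015, 961 and 1322 CPM without overlap (-0.58, unadjusted p = 0.0090). The median of the list was -0.03 in control medium and -0.03 with Ox-LDL. With Ac-LDL, 3 of the list were lower at an unadjusted p under 0.05, where 2.43% of all genes were. Without knockout replicate 2 none was, and the median was -0.105.

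**Figure D4:**
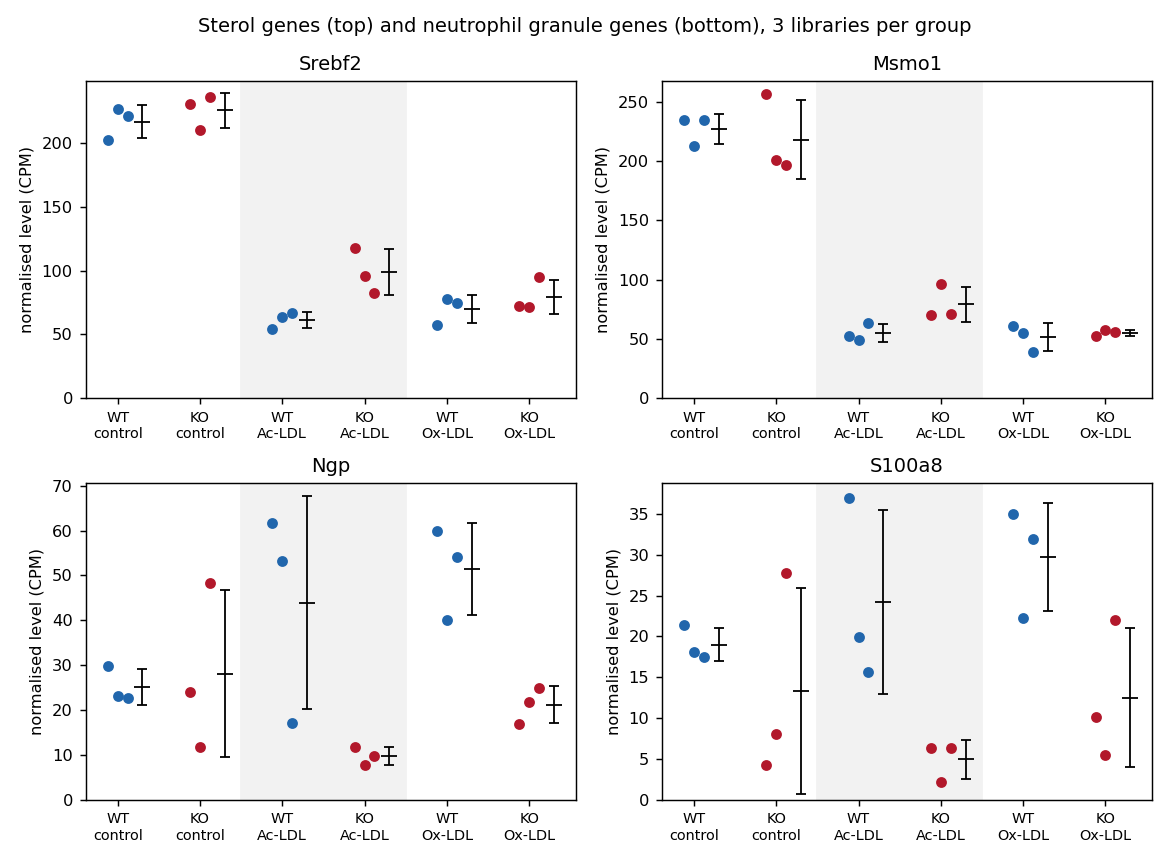
Levels in CPM on linear axes from 0 of *Srebf2* and *Msmo1* (top) and of the neutrophil granule genes *Ngp* and *S100a8* (bottom) in the 18 libraries, with points, bars and band as in the plot of *Slc7a7*. With Ac-LDL, *Srebf2* was at least 82.3 CPM in knockout and at most 66.6 CPM in wild type cells, and *Ngp* was at most 11.8 CPM in knockout and at least 17 CPM in wild type cells, with a wide spread among the latter.

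Neutrophil granule genes were listed as markers of another marrow cell type. Of 14 listed, 9 were tested, 7 of them with lower and 2 with higher values in knockout cells, and the median was -1.40. At an unadjusted p under 0.05, 4 were lower, and 3 of these did not overlap between the genotypes, where 2.43% and 4.78% of all genes were so. edgeR called 0 and DESeq2 called *Ngp*. *Ngp*, a granule protein of immature neutrophils, had 11.8, 7.77 and 9.86 CPM in knockout and 61.7, 53.2 and 17 CPM in wild type cells (-2.15, standard error 0.43, adjusted p = 0.11). *S100a8*, a subunit of calprotectin, had 6.30, 2.22 and 6.38 CPM against 37.0, 19.9 and 15.6 CPM (-2.26, standard error 0.57, unadjusted p = 0.00056). Its partner *S100a9* had 27.6, 7.22 and 24.4 CPM against 88.3, 54.7 and 30.6 CPM (-1.56, unadjusted p = 0.0028). *Ltf*, lactoferrin, had 11.8, 5.55 and 4.64 CPM against 27.5, 25.1 and 11.6 CPM, with overlap (-1.57, unadjusted p = 0.00045). Not every member was lower in this way. *Mmp8* had 35.5, 15.55 and 17.4 CPM in knockout and 19.0, 13.3 and 23.8 CPM in wild type cells. *Mpo* had 7.09, 1.11 and 5.22 CPM against 0, 10.3 and 0.68 CPM, and both overlapped between the genotypes.

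These genes were at low levels in all libraries, and the receptors *Cxcr2* and *Ly6g* and the secreted *Retnlg*, which mark mature neutrophils, had 0 counts in each of the 6. Summed over the 14 genes, the knockout libraries had 110, 43.3 and 74.2 CPM and the wild type libraries 241, 190 and 110 CPM, so that the highest knockout and the lowest wild type library were alike. In control medium the ranges were 63.1 to 162 CPM in knockout and 109 to 158 CPM in wild type cells, and with Ox-LDL 97.2 to 153 and 194 to 339 CPM. Fewer such cells and less of this RNA per cell cannot be told apart in bulk RNA. Granulocytes also use the *Lyz2* locus, and the part of granule-bearing cells in the *Lyz2* difference was not tested. Mean *Lyz2* with Ac-LDL was 10900 CPM in knockout and 25520 CPM in wild type cells. How much *Lyz2* RNA granule-bearing cells held was not measured, so the granule sums do not bound that part.

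Other cell types were followed by the summed level of their markers. The 10 stromal markers summed to 0 to 17.4 CPM in knockout and 1.90 to 29.2 CPM in wild type libraries, with *Dcn* and *Lum* at 0 counts in all 6. The 9 dendritic markers summed to 19.7 to 25.6 and 16.3 to 25.1 CPM, and the 7 monocyte markers to 147 to 246 and 172 to 224 CPM. The 12 lymphoid markers summed to 117 to 162 CPM in knockout and 110 to 123 CPM in wild type libraries, nearly all of it *Il7r*, the receptor for interleukin 7, at 116 to 158 and 110 to 122 CPM. Of them 8 had 0 counts in all 6 libraries, as did all 8 erythroid ones. The 22 macrophage identity genes, all tested, had a median of 0.00, 11 higher and 11 lower. Among them *Mertk*, which binds apoptotic cells, was at -0.58 (unadjusted p = 0.016) and the transcription factor *Cebpa* at -0.51 (unadjusted p = 0.018), both with overlap.

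The rule for named genes also picked the 10 smallest p-values in each direction among genes of at least 5 CPM without overlap. Beside *Srebf2*, the higher ones included *2410002F23Rik* (1.08), *Acsf3* (1.43), *Dusp1* (0.91), *Sntb2* (0.48), *Nectin1* (1.03), *Map3k4* (0.81), *Ccdc171* (0.84) and *Palb2* (0.82). *Dusp1*, a phosphatase that switches off MAP kinases, had 85.9, 110 and 106 CPM against 34.2, 76.1 and 48.3 CPM. *Acsf3*, a mitochondrial acyl-CoA synthetase, had 9.46, 9.44 and 8.70 CPM against 2.85, 3.69 and 3.40 CPM. These wild type values came from 3, 5 and 5 counts, near the counting limit. *Acsf3* was at 0.47 in control medium and -0.08 with Ox-LDL. *Map3k4*, a MAP kinase kinase kinase, had 39.4, 50.5 and 57.4 CPM against 24.7, 28.8 and 30.6 CPM. Of the 10 genes, 8 were higher in control medium and 8 with Ox-LDL as well, in other libraries of the same mice.

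The lower ones, after *Slc7a7* and *Lyz2*, were *Gm10800* (-1.32), *Gm10718* (-1.71), *Ngp*, *Hist1h2ah*, *Ms4a6c* (-0.80), *S100a8*, *H2-T22* (-0.84) and *Lgals9* (-0.78). *Ms4a6c*, a membrane protein of monocytes and macrophages, had 45.7, 33.9 and 41.7 CPM against 68.3, 70.2 and 70.7 CPM (adjusted p = 0.36). *Lgals9*, galectin-9, had 33.9, 35.5 and 29.0 CPM against 67.4, 51.7 and 51.0 CPM. *H2-T22*, a nonclassical MHC class I gene, had 34.7, 26.7 and 29.6 CPM against 52.2, 53.9 and 55.1 CPM. All 10 were lower with Ox-LDL too, and 9 in control medium, *Ngp* being the exception at 0.17.

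Counts of several of these are uncertain because their sequences recur. *Hist1h2ah*, a histone H2A gene, had 0 counts in each knockout library and 7.59, 34.0 and 34.0 CPM in wild type cells, at least 13.1-fold lower against a limit of 3 counts per library. Of its 31-base words, 91.2% are shared with other genes. In control medium the knockout libraries held 4, 38 and 0 counts and the wild type ones 0, 27 and 10. With Ox-LDL the knockout libraries held 0 counts each and the wild type ones 19, 9 and 16. *Gm10718* shared 79.0% of its words, *H2-T22* 51.0%, *Gm10800* 42.0% and *Ms4a6c* 21.9%, so that reads could have been divided differently between copies. *Srebf2*, *Dusp1*, *Ngp* and *S100a8* shared between 0% and 1.32%.

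**Figure D5:**
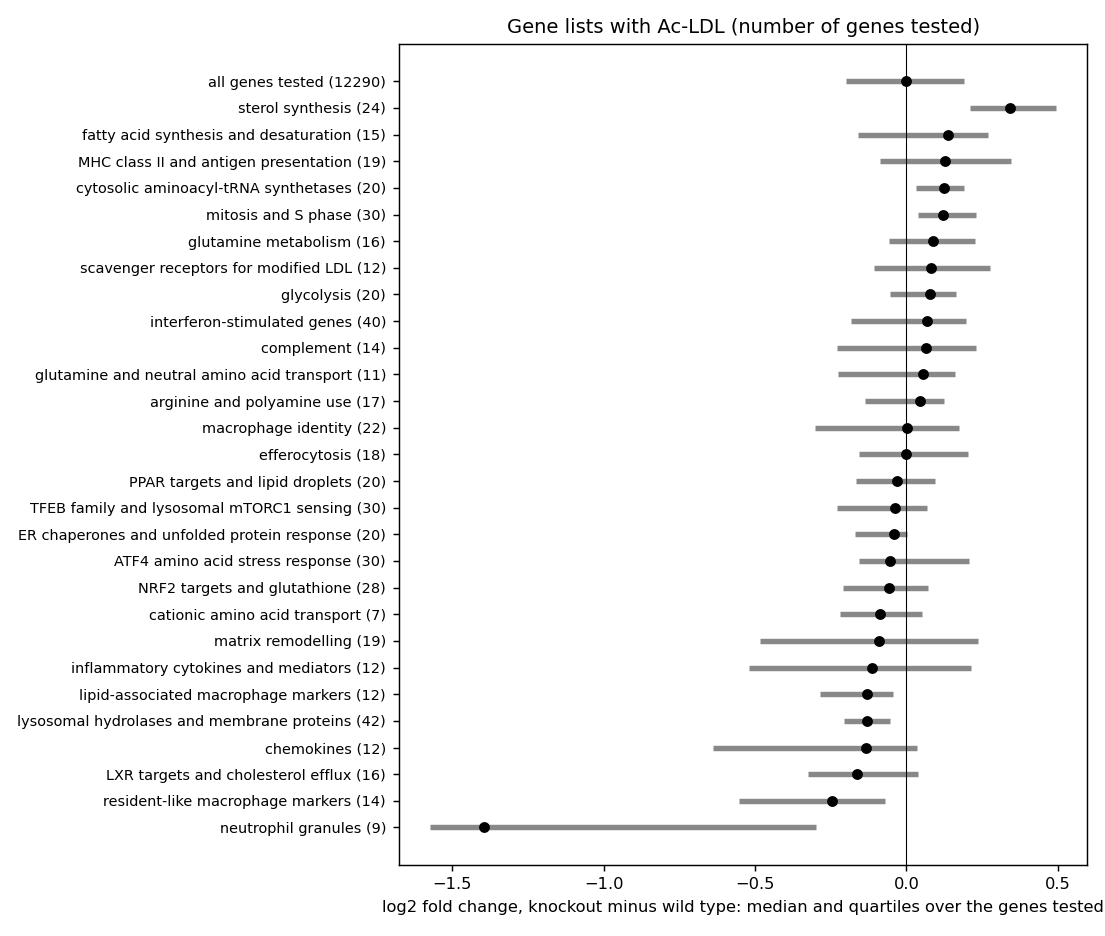
Median (black point) and quartiles (grey bar) of the log2 fold change, knockout over wild type with Ac-LDL, over the genes tested in each list, with the number tested in brackets and all 12290 genes at the top. The sterol list has the highest median (0.34) of the lists plotted and the neutrophil granule list the lowest (-1.40). Not plotted are the dendritic, lymphoid, stromal, monocyte, osteoclast and sex-linked lists and the genes within 500 kb of *Slc7a7* or *Lyz2*.

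Lists of immune and growth genes had small medians, some of them of a size like that of the lysosomal and LAM lists. Of 40 interferon-stimulated genes tested, 25 were higher, with a median of 0.07, 0 called by edgeR or DESeq2 and 0 at an unadjusted p under 0.05. Their direction followed single libraries, with a median of 0.51 without wild type replicate 2, whose summed level of 2376 CPM was the highest of the 6, and of -0.21 without wild type replicate 1, whose sum of 901 CPM was the lowest. The 12 cytokines and mediators tested had a median of -0.11, which was 0.17 without wild type replicate 2, and the 12 chemokines of -0.13, which was -0.25 without knockout replicate 2. The 30 genes of mitosis and S phase had 26 higher with a median of 0.12, none at an unadjusted p under 0.05, and medians of 0.18 in control medium and 0.14 with Ox-LDL. Without wild type replicate 3, 16 of the 30 were higher and the median was 0.02.

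Of 28 NRF2 targets, 18 were lower and 10 higher with a median of -0.06, but 23 were higher with a median of 0.12 without wild type replicate 1. Among them *Srxn1*, which repairs peroxiredoxins, was at 133, 148 and 127 CPM against 116, 97.5 and 87.7 CPM, without overlap (0.45, unadjusted p = 0.0067). Of 18 efferocytosis genes, 9 were higher and 9 lower, among them the lipid transporter *Abca7* at 0.49 (unadjusted p = 0.014) and the bridging protein *Gas6* at -0.48 (unadjusted p = 0.030), both without overlap. Of 20 chaperones and genes of the unfolded protein response, 15 were lower (9 without wild type replicate 2), with *Dnajc3* at 73.3, 78.3 and 84.1 CPM against 102, 91.6 and 109 CPM (-0.36, unadjusted p = 0.015). The 20 glycolysis genes had a median of 0.08, the 19 genes of MHC class II and antigen presentation of 0.13, the 14 complement genes of 0.07, the 19 matrix genes of -0.09 and the 6 osteoclast markers of -0.16. These 5 medians also moved with single libraries, from 0.0076 without wild type replicate 3 to 0.17 without wild type replicate 1 for glycolysis, from 0.04 without wild type replicate 1 to 0.31 without wild type replicate 2 for antigen presentation, and to -0.05 without wild type replicate 1 for complement, 0.06 without wild type replicate 3 for matrix and 0.13 without wild type replicate 1 for osteoclast genes. edgeR and DESeq2 called 0 members of each of these lists.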

How the data were processed

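RNA-Seq of the 18 libraries was made by the authors with a stranded total RNA kit, single-end. Reads were trimmed with Trim Galore, aligned to mm10 with STAR and quantified with salmon on Ensembl release 93 within nf-core. The tool versions and strand setting are not given in the sources used here, so reads of genes on opposite strands may have been shared. Estimated counts per gene from salmon, not normalized, were deposited by the authors. All columns belong to these samples, with 0 columns of other samples.

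Counts were rounded, filtered with filterByExpr (minimum count 2, minimum total 10), scaled by TMM and fitted with edgeR 4.0.16 (R 4.3.3, quasi-likelihood, 6 groups, 12 residual degrees of freedom, threshold 0.05), which pools the spread over all groups. CPM are TMM-scaled. No replicate pair was alike within sampling noise (chi-square divided by its degrees of freedom, 2.03 to 5.89). The labels name 3 mice per genotype, each giving 1 library to the comparison, so it is unpaired. Tests of differences between media use libraries of the same mice. The edgeR fit held no term for the mouse, so the p-values of those tests ignore this pairing. Libraries of a mouse in different media deviated together with a median r of 0.158 (0.0551 to 0.293, over 0.1 in 14 of 18 pairs).

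Members, lists and rules were chosen with earlier results of these data known. The naming rule took *Slc7a7*, *Lyz2*, *Lyz1*, *Trem2*, *Folr2* and glutamine transporters, genes called, the 10 smallest p-values in each direction (at least 5 CPM, no overlap), the 3 smallest of each list and the 12 LAM markers. Not all of these genes are described. *Abca1*, *Abcg1*, *S100a9* and the sterol genes named beside *Srebf2* and *Msmo1* were added outside the rule. The alternatives below were not tabulated for these added genes singly. Cell type markers enter mostly as summed levels. Coordinates and 31-base words come from GENCODE M21 (GRCm38), which held 31011 of the 31053 identifiers, and promoters from RefSeq. Alternatives were DESeq2 1.42.0, limma 3.58.1 voom with the mouse as random block, 2 other scalings, 2 other filters, only the 6 libraries compared, a replicate block, each library left out and, chosen after seeing the data, a term for sex. The scripts were tested on simulated counts. Some genes are not reported here by name, though counts and medians of lists include them. Figures were drawn with matplotlib 3.10.9.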

Additional observations from a re-analysis of the deposited data

How the results depend on the processing

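Of 114 genes that the naming rule picked, 92 kept their direction and their side of the threshold under all 15 alternatives. The 2 genes called became 6 with DESeq2 (1 higher, 5 lower), 45 with no filter (18 higher, 27 lower), 4 with only the 6 Ac-LDL libraries and 1 to 3 with each library left out. The count stayed at 2 with the other scalings, the default filter, limma voom and the term for sex. *Slc7a7* was called each time (log2 -3.41 to -2.62, adjusted p from 2.94e-10 to 0.0206). *Lyz2* was at -1.363 to -1.069 with each library left out, and missed the threshold without knockout replicate 1, 2 or 3 (adjusted p = 0.069, 0.30 and 0.161) or wild type replicate 3 (0.179). *Srebf2* kept its direction (0.53 to 0.79) with an adjusted p from 0.0429 with no filter to 1. Genes at an unadjusted p under 0.05, 601 in the report, were 331 with DESeq2 and 436 to 883 with each library left out. With no filter, the genotype effect with Ac-LDL differed from that in control medium for 18 genes and from that with Ox-LDL for 16. The cause was not tested.

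Replicate numbers mark different mice in each genotype. Same-numbered libraries deviated with r of -0.0117, -0.0102 and 0.0176, and 1 of 3 correlated best with its own number, so the numbers do not pair them. With a replicate block, 9 genes were called (3 higher, 6 lower) and *Spp1* turned to 0.009039.

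Directions of small differences turned with single libraries left out, over -0.105 to 0.05962 for *Slc3a2*, -0.06802 to 0.1481 for *Slc7a8*, -0.1069 to 0.03206 for *Trem2*, -0.164 to 0.3795 for *Slc7a6*, -0.05404 to 0.7772 for *Slc7a5*, -0.226 to 0.1294 for *Lgals3*, -0.2493 to 0.2806 for *Spp1* and -0.1464 to 0.0933 for *Ctsl*. The *Lyz2* effect with Ac-LDL minus that with Ox-LDL ran from -0.1323 to 0.1553 in the same way, and was -0.005877 with library size alone. Of 36 list medians, 21 changed sign under at least 1 alternative, while that of sterol synthesis stayed at 0.287 to 0.512. Effects between media could not be fitted with only the 6 Ac-LDL libraries.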
